A study of Homo sapiens with 12 samples.

Results

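The enzymes described here make serine and move its carbon through the folate cycle, together with asparagine synthetase and a proline-making reductase that are often controlled with them. The 10 members, PHGDH, PSAT1, PSPH, SHMT1, SHMT2, MTHFD1, MTHFD1L, MTHFD2, ASNS and PYCR1, were taken by gene name from a table of read counts that lists 20212 genes. All 10 had at least 10 counts summed over the ribosome footprint (RF) libraries and at least 10 over the total RNA libraries, and were therefore among the 13329 genes tested.

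The study asked how rapamycin changes the translation of mRNAs in pancreatic cancer cells. PANC-1, an established human pancreatic ductal cancer cell line grown in DMEM with fetal bovine serum, received either the solvent DMSO or 50 nM rapamycin for 60 min, and the labels name no genetic change in either group. Each treatment had 3 cultures described as biological replicates, and each culture gave 1 RF library, made from the mRNA pieces that ribosomes protect from nuclease, and 1 total RNA library. All 12 libraries come from this single line, so no value here speaks for other pancreatic cells. Translation efficiency (TE) is RF relative to total RNA of the same gene, and its change is the change in RF that total RNA does not account for. The TE change was fitted jointly over both library types. It need not equal the difference between the separately fitted changes in RF and total RNA.

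The depth of the 2 library types differed widely. RF counts summed to 303220, 881106 and 1574723 in DMSO replicates 1, 2 and 3 and to 1255675, 792690 and 278835 in rapamycin replicates 1, 2 and 3, against 78081241 to 94293744 in the total RNA libraries. Values are given as CPM, that is counts relative to the library total, after TMM scaling within each library type. The floor, or the 3 counts that may underlie a reading of 0, lay between 2.05 and 9.80 CPM across RF libraries and covers counting error only. The epithelial keratins KRT8, KRT18 and KRT19 stood at 1326 to 1765 FPKM (fragments scaled to transcript length and library size) in total RNA, the ductal keratin KRT7 at a median of 11.1, the epithelial markers EPCAM, CDH1 and MUC1 at 2.15 to 7.98, and the mesenchymal filament gene VIM at 2410 to 2568. The acinar, endocrine and leukocyte markers measured were at or below 0.272 FPKM in every culture.

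Cells build serine from a glycolytic intermediate in a short arm of successive steps: PHGDH oxidizes 3-phosphoglycerate, PSAT1 transfers an amino group onto the product, and PSPH removes the phosphate. Serine hydroxymethyltransferases then pass a carbon of serine to tetrahydrofolate and leave glycine, SHMT1 in the cytosol and SHMT2 in mitochondria, and the MTHFD enzymes interconvert the folate-bound carbon for purine, thymidylate and formate production. ASNS makes asparagine from aspartate and glutamine, and PYCR1 performs the last step of proline synthesis in mitochondria. In growing cells the kinase complex mTORC1, which rapamycin inhibits, is known to raise the transcription factor ATF4, and ATF4 is known to activate many of these genes. mTORC1 is also known to favour translation of mRNAs that begin with a C followed by an unbroken run of pyrimidines, the 5′ terminal oligopyrimidine (TOP) mRNAs. The paper reports that PANC-1 lacks the protein made from EIF4EBP1, an mTOR target that it ties to translation of TOP mRNAs. From these same libraries it reports that TOP motifs were enriched in the 5′ untranslated regions of the mRNAs it called lower in TE. That enrichment was not tested again here. It also reports that rapamycin lowered the activity of a TOP reporter in this line, after a longer treatment than that of the libraries. Whether the loss of the EIF4EBP1 protein affects the values given here was not tested.

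The first bases of the mRNAs are therefore shown for the members that carry such a start and, beside them, for ASNS and PYCR1, the members that DESeq2's Wald test called in TE. Of 13329 genes that test called 622 lower and 685 higher. Each line gives the first 20 bases of the protein-coding isoform with the highest FPKM, with the longest run of pyrimidines in capitals, from the annotation of GRCh37.
SHMT2: CTTCTTCCgacagcttgctg
MTHFD2: CTTCCCTCCCggcgcagtca
ASNS: aagctgtccacaTCCCTggc
PYCR1: CTgggtgcgggtgccgcgtg

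These starts lie in the first exon, in the 5′ untranslated region, at chr12:57623494-57623513 on the plus strand for SHMT2, chr2:74425737-74425756 on the plus strand for MTHFD2, chr7:97501701-97501720 on the minus strand for ASNS and chr17:79895157-79895176 on the minus strand for PYCR1. SHMT2 opened with 8 pyrimidines and MTHFD2 with 10. A start of C and at least 5 pyrimidines was found in 464 of 10159 protein-coding genes whose leading isoform reached 1 FPKM, or 4.57%. The share of a gene's coding FPKM that lay in isoforms with such a start was 78.4% for MTHFD2 and 40.0% for SHMT2, and it was 0 or nearly so for the other members. MTHFD1 was not assessed, because its annotated isoforms held only 33.7% of its FPKM. The starts are those of the annotation and were not measured here.

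The promoters of the same genes were searched on both strands for TGATGNAA, the C/EBP-ATF response element that ATF4 binds. The window ran from 250 bases before to 50 bases after each start site in RefSeq GRCh38.p14, where 7 of the 10 members have 11 listed promoters. The element was present in 1270 of 35116 promoters of all genes, or 3.62%, and in 4 of the 11 member promoters, which belong to ASNS and MTHFD1L. Both are printed in the direction of the gene with the element in capitals.
ASNS: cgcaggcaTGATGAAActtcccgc
MTHFD1L: gccggctcTGATGCAAtcgcgccg

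The ASNS window is chr7:97872461-97872484 on the minus strand and its element starts 68 bases before the start site. The MTHFD1L window is chr6:150866349-150866372 on the plus strand and is shared by 3 listed promoters, in which the element starts 129 or 90 bases before or 24 bases after the start site. Such a match describes the letters only.

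After rapamycin, total RNA of the 10 enzymes lay close to its DMSO level, with 95% intervals of the ratio from 0.88 to 1.09 over all members, while RF scattered more widely and in both directions. No member was called in TE, RF or total RNA (edgeR's quasi-likelihood test, p adjusted by Benjamini-Hochberg over all genes tested). On simulated counts that test recovered 28.5% of 4-fold changes in TE, 24.5% in RF and 87% in total RNA. A gene that was not called may therefore still have changed. In TE that test called 0 of 13329 genes in either direction (0% background). Without adjustment, 805 genes (6.04%) had a p under 0.05 with lower TE and 879 (6.59%) with higher TE, whereas DESeq2's Wald test called 622 lower and 685 higher. In RF it called 0 genes lower and 1 gene, RAI1, higher (0.0075%), with 247 lower (1.85%) and 238 higher (1.79%) unadjusted. In total RNA it called 0 in either direction, with 651 lower (4.88%) and 365 higher (2.74%) unadjusted, and DESeq2's Wald test called 4 lower and 25 higher.

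The estimates for the members split 3 lower and 7 higher in TE, with a median log2 fold change of 0.10 beside -0.03 over all genes, of which 6943 were lower and 6386 higher. Without rapamycin replicate 1 the members' TE median was -0.05, without DMSO replicate 3 it was 0.40, and with TMM over all libraries 0.02. They split 4 lower and 6 higher in RF, with a median of 0.18 beside 0.03, and without rapamycin replicate 1 that median was -0.24. In total RNA 7 were lower and 3 higher, with a median of -0.03 beside -0.02. PYCR1 alone passed an unadjusted p of 0.05, in TE and in RF, and it alone had all rapamycin cultures above all DMSO cultures in these readouts, which 5.11% of all genes did in TE and 5.41% in RF. None of the 10 had all rapamycin cultures below in either readout, against 5.72% and 3.98% of all genes, and none was separated in either direction in total RNA, against 6.67% above and 10.7% below. A count of 1 in 10 is near these background shares and says nothing particular about the group.

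**Figure D1:**
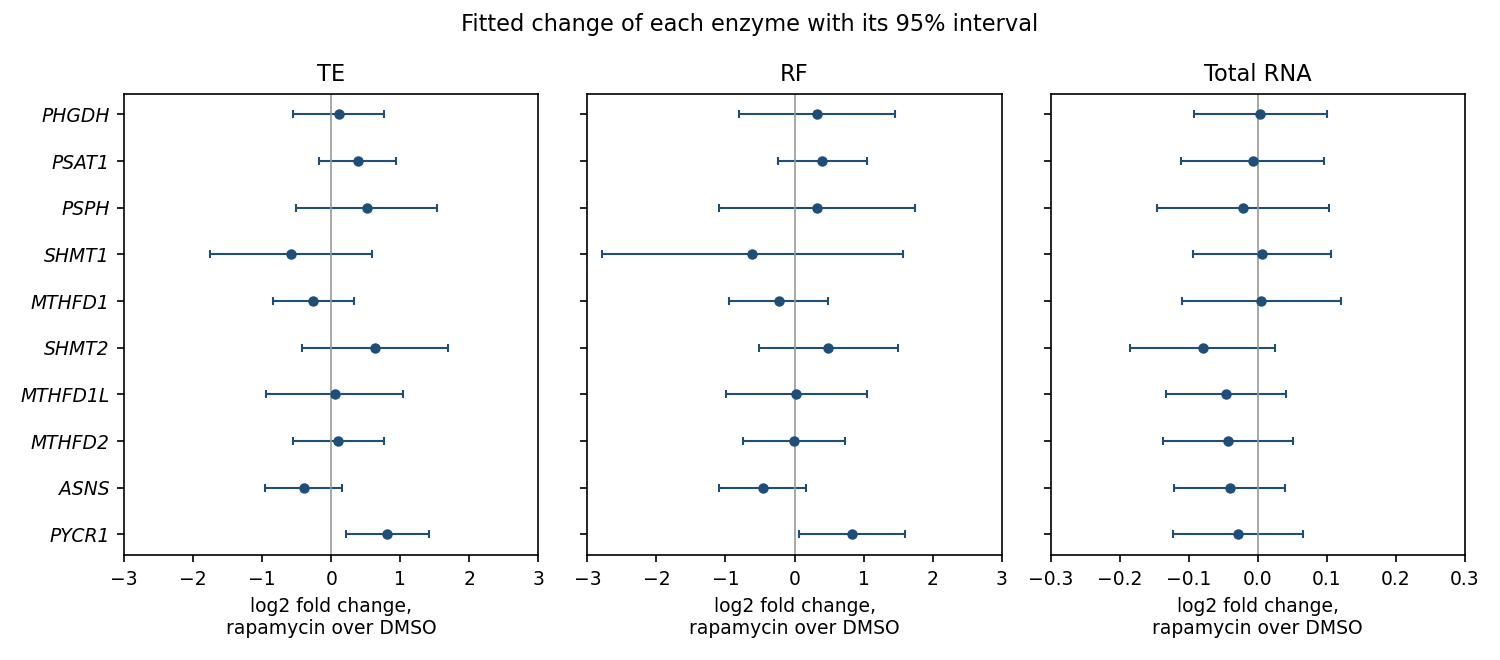
Fitted log2 fold change of each enzyme, rapamycin over DMSO, in TE, RF and total RNA (points, with 95% intervals as bars; 3 cultures per treatment; the total RNA axis is 10 times finer). The PYCR1 intervals in TE and RF, 0.21 to 1.41 and 0.07 to 1.60, lie above 0, every other interval spans 0, and the total RNA intervals lie between -0.19 and 0.12. TE intervals are those of the joint fit and may be too narrow.

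Total RNA was measured far more evenly than RF. The largest estimate was that of SHMT2, with a log2 fold change of -0.08 ± 0.05 from 86.3, 96.5 and 87.5 CPM in DMSO and 85.0, 83.1 and 87.7 in rapamycin. MTHFD2, the most abundant, stood at 259, 261 and 253 CPM in DMSO and at 259, 234 and 257 in rapamycin, and SHMT1, the least abundant, at 19.5, 19.5 and 19.4 and at 19.4, 19.6 and 19.8. The cultures of both treatments overlapped for every member, and so did the FPKM share of the leading coding isoform of each. For PYCR1 that share was 51.0%, 51.2% and 46.4% in DMSO and 48.0%, 46.3% and 47.6% in rapamycin. Together the 10 genes took 0.103% to 0.106% of the reads of a total RNA library. Of the RF reads they took 0.0745%, 0.0615% and 0.0737% in DMSO and 0.0783%, 0.0835% and 0.0757% in rapamycin, without overlap, but after TMM scaling their RF sums, 684, 678 and 791 CPM against 821, 805 and 690, overlapped.

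In the serine synthesis arm, RF was higher in rapamycin on average for all 3 enzymes, and each gene's cultures overlapped between treatments. For PHGDH (chr1:120191034-120286841), the enzyme that commits carbon to serine, RF stood at 12.1, 42.5 and 47.7 CPM in DMSO and at 35.9, 56.0 and 42.5 in rapamycin. The low DMSO replicate 1 value rests on 4 reads, and the other 5 cultures lay between 35.9 and 56.0 CPM. On the log2 scale the fitted change was 0.33 ± 0.54 (SE, n = 3) for RF and 0.11 ± 0.31 for TE. The joint TE fit estimates 1 spread for both library types. With separate weights by library type, limma voom gave a larger TE standard error for every member, 0.49 for PHGDH. The TE standard errors and intervals given here are those of the joint fit and may be too narrow. Without DMSO replicate 1 the RF estimate was -0.01, so its direction rests on that library.

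PSAT1 (chr9:80912041-80945009), the aminotransferase, was the most read mRNA of the arm. Its RF stood at 93.8, 114 and 115 CPM in DMSO and at 109, 153 and 170 in rapamycin. Rapamycin replicates 2 and 3 exceeded every DMSO culture and replicate 1 did not. In RF the log2 fold change was 0.40 ± 0.30, and in TE it was 0.38 ± 0.26 with an adjusted p of 0.582 by edgeR's quasi-likelihood test. The TE estimate stayed between 0.27 and 0.53 when any 1 culture was left out.

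For PSPH (chr7:56078744-56119297), the phosphatase of the last step, RF was 21.2, 21.3 and 17.7 CPM in DMSO and 40.1, 21.9 and 9.80 in rapamycin. The DMSO cultures lay close together and the rapamycin cultures fell on both sides of them, with 48 reads in replicate 1 and 3 in replicate 3. In TE the log2 fold change was 0.51 ± 0.48, and it was -0.05 without rapamycin replicate 1. The RF estimate was 0.33 ± 0.67. Mean log2 TE over cultures hardly differed, at -0.62 in DMSO and -0.59 in rapamycin.

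Summed over the arm, RF was 127, 178 and 181 CPM in DMSO and 185, 231 and 222 in rapamycin, a ratio of means of 1.32, while the summed total RNA had a ratio of 0.99. The sums do not overlap, although no single gene of the arm was separated. The lowest rapamycin sum, 185 CPM, lay just above the highest DMSO sum, 181, and the DMSO replicate 1 sum rests on 42 reads. Among single genes, 5.41% had all rapamycin cultures above all DMSO cultures in RF, and no such share was taken for sums. The sums of the cytosolic folate branch (SHMT1 and MTHFD1) and of the mitochondrial folate branch (SHMT2, MTHFD1L and MTHFD2), with ratios of means of 0.84 and 1.09, overlapped between treatments. The sums were formed after the single genes were known and were not tested.

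**Figure D2:**
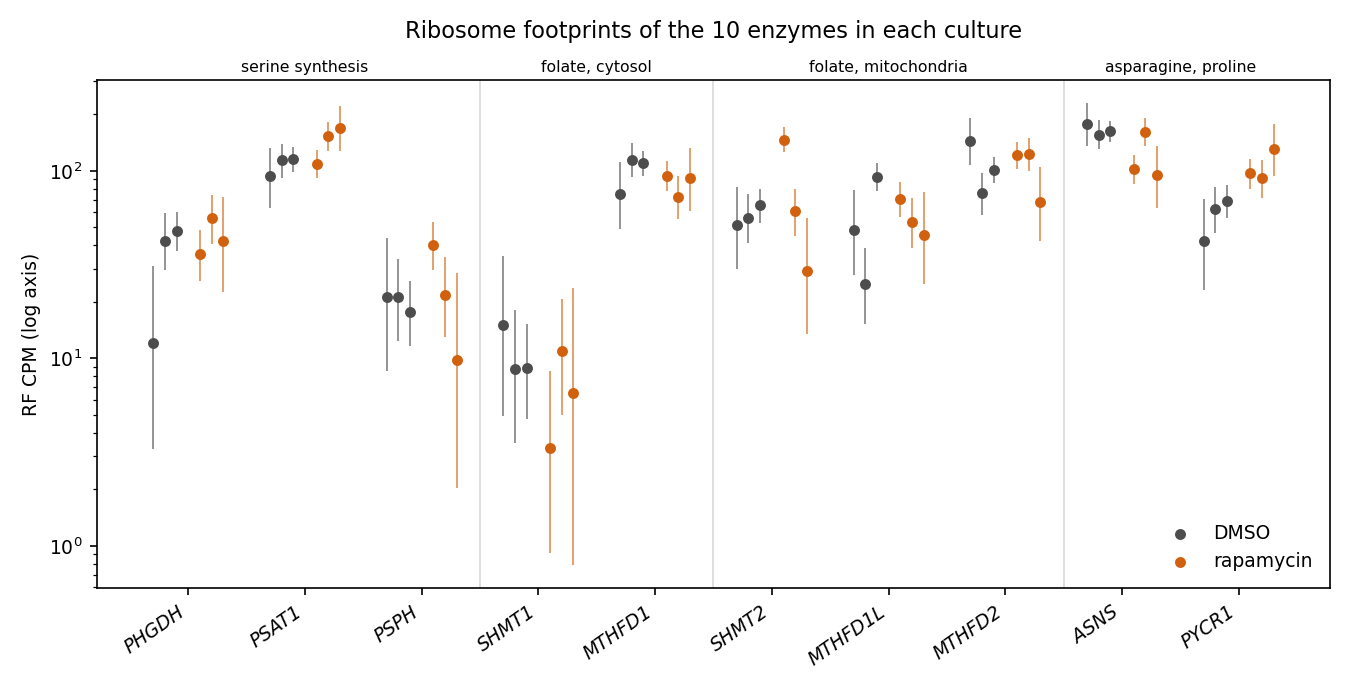
RF CPM (log axis) of each enzyme in the 3 DMSO and the 3 rapamycin cultures, replicates 1 to 3 from left to right, with exact 95% Poisson intervals for counting error as bars. PYCR1 has every rapamycin culture above every DMSO culture, and SHMT2 has its highest and its lowest culture, 147 and 29.4 CPM, both in rapamycin.

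In the cytosolic folate branch both estimates were negative and neither passed the test. SHMT1 (chr17:18231174-18266877), which splits serine in the cytosol, was the least abundant member, with RF of 15.1, 8.75 and 8.87 CPM in DMSO and 3.34, 10.9 and 6.54 in rapamycin. These values rest on 2 to 13 reads per library, near the floor, and they overlap. For RF the log2 fold change was -0.61, with a 95% interval of -2.80 to 1.57 that leaves large changes in either direction undetected at this depth. In TE the estimate was -0.58 ± 0.55, and it was -0.06 without rapamycin replicate 1 and -1.28 without replicate 2.

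MTHFD1 (chr14:64854749-64930175) carries the cytosolic dehydrogenase, cyclohydrolase and formate-tetrahydrofolate ligase activities in 1 protein. Its RF was 75.6, 115 and 110 CPM in DMSO and 94.4, 73.0 and 91.5 in rapamycin, with every rapamycin culture inside or just below the DMSO range. Its log2 fold changes were -0.23 ± 0.34 for RF and -0.26 ± 0.27 for TE (-0.42 without rapamycin replicate 1 and -0.08 without replicate 2), with a 95% interval for the TE ratio of 0.56 to 1.25. With limma voom the TE standard error was 0.53, so this interval may be too narrow.

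In the mitochondrial branch the spread within a treatment exceeded the difference between treatments. SHMT2 (chr12:57623356-57628718), the mitochondrial counterpart of SHMT1, had RF of 51.4, 56.3 and 65.5 CPM in DMSO and of 147, 60.8 and 29.4 in rapamycin. The DMSO cultures had overlapping counting intervals, whereas the 95% counting interval of rapamycin replicate 1, 126 to 170 CPM, did not overlap those of replicates 2 and 3, which were 45.2 to 80.2 and 13.5 to 55.8. Total RNA of SHMT2 in the same rapamycin cultures was even, at 85.0, 83.1 and 87.7 CPM. In TE its log2 fold change was 0.63 ± 0.49, and without rapamycin replicate 1 it was -0.24.

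MTHFD1L (chr6:151186815-151423023), which releases formate in mitochondria, differed widely among DMSO cultures. Its RF stood at 48.4, 25.0 and 92.8 CPM in DMSO and at 71.0, 53.5 and 45.8 in rapamycin, so that all rapamycin cultures lay inside the DMSO range. The log2 fold change in TE was 0.05 ± 0.46, ranging from -0.36 without DMSO replicate 2 to 0.86 without DMSO replicate 3.

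MTHFD2 (chr2:74413299-74444692), the mitochondrial dehydrogenase and cyclohydrolase that is abundant in many tumours, had RF of 145, 76.3 and 102 CPM in DMSO and of 121, 123 and 68.6 in rapamycin. The cultures of the treatments were fully interleaved. Its log2 fold changes were -0.01 ± 0.35 for RF and 0.10 ± 0.31 for TE, and the 95% interval of the TE ratio was 0.68 to 1.70. SHMT2 and MTHFD2 are the assessed members whose leading coding isoform begins as TOP mRNAs do, and the direction of neither TE estimate was stable. That isoform held 23.4% of the FPKM of SHMT2 and 23.1% of that of MTHFD2. TE takes all isoforms of a gene together, so these estimates are not those of the TOP isoforms alone. MTHFD2 had -0.09 without DMSO replicate 2, -0.02 and -0.06 without rapamycin replicates 1 and 2, and -0.04 with TMM over all libraries, and its mean log2 TE over cultures was -0.84 in DMSO and -0.89 in rapamycin. The lower 95% bounds of the TE ratio were 0.74 for SHMT2 and 0.68 for MTHFD2. With limma voom the TE standard errors were larger, 0.60 for SHMT2 and 0.54 for MTHFD2, so these intervals may be too narrow.

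ASNS (chr7:97480989-97501854) and PYCR1 (chr17:79890260-79900288) had estimates in opposite directions. RF of ASNS was 179, 156 and 163 CPM in DMSO and 102, 162 and 94.8 in rapamycin. Rapamycin replicates 1 and 3 lay well under the DMSO cultures and replicate 2 lay among them. The estimates were -0.46 ± 0.30 for RF and -0.40 ± 0.26 for TE on the log2 scale. The adjusted p in TE was 0.562 by edgeR's quasi-likelihood test and 0.0102 by DESeq2's Wald test, which called ASNS lower. Leaving out 1 culture at a time gave TE estimates from -0.71 to -0.28.

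RF of PYCR1 was 42.4, 62.5 and 68.9 CPM in DMSO and 96.9, 91.3 and 131 in rapamycin, from 14, 50 and 101 reads and from 116, 75 and 40 reads. The lowest rapamycin culture stood above the highest DMSO culture. Total RNA was level, at 130, 140 and 134 CPM in DMSO and 127, 133 and 137 in rapamycin. The fitted change was 1.78-fold in RF, with a 95% interval of 1.05 to 3.04, and 1.75-fold in TE, with an interval of 1.15 to 2.66. By edgeR's quasi-likelihood test the unadjusted p in TE was 0.0121 and the adjusted p 0.277, and the two-sided exact permutation test over cultures gave 0.1, the smallest value that 3 cultures against 3 allow.

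The call for PYCR1 depended on the test and its direction did not. DESeq2's Wald test called it higher in TE, with an adjusted p of 0.00431. The joint model estimates 1 spread for both library types (a biological coefficient of variation of 24.4%, against 55.0% in RF alone and 5.36% in total RNA alone), and limma voom with separate weights by library type gave a larger standard error, 0.48 against 0.28, and an adjusted p of 0.741. The TE estimate was between 0.70 and 0.92 when any 1 culture was left out, and 0.595 without the smallest RF library of each treatment, a choice made after seeing the data.

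RF of ALDH18A1, which acts upstream in proline synthesis and is named here after its values were seen, was not higher. It stood at 93.8, 67.5 and 70.9 CPM in DMSO and at 66.8, 37.7 and 36.0 in rapamycin.

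**Figure D3:**
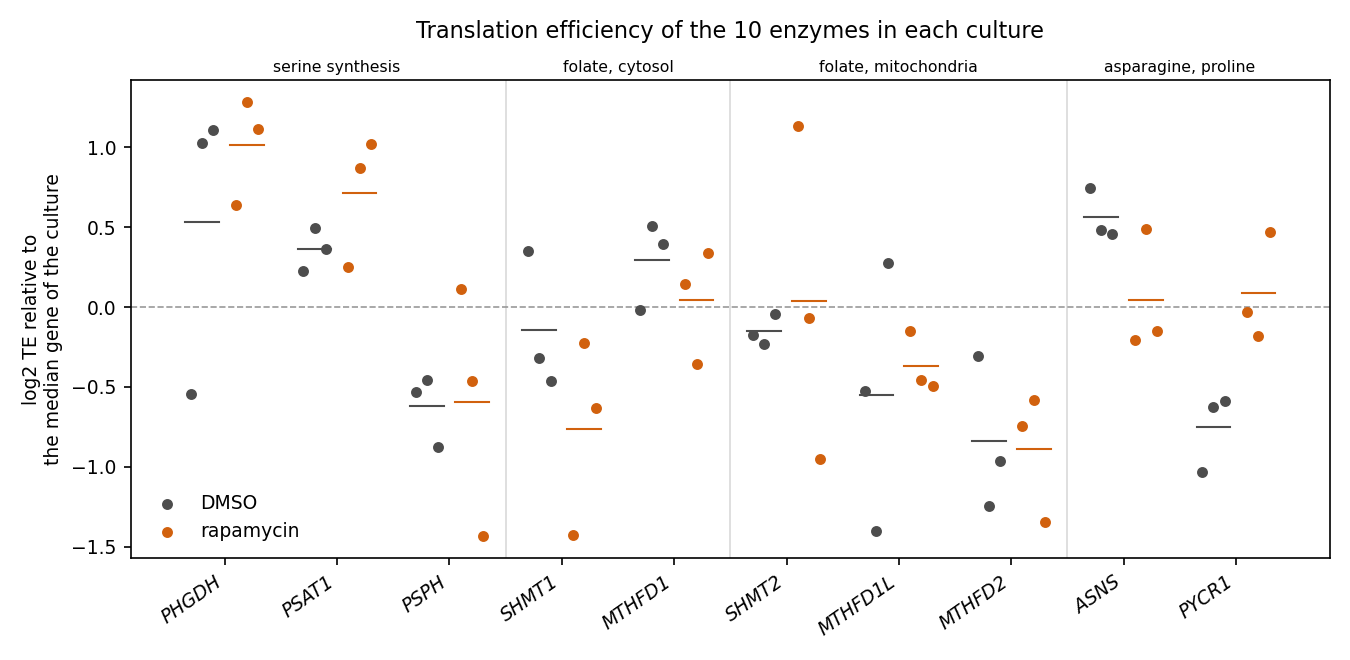
log2 TE of each enzyme in each culture, relative to the median gene of the same culture (dashed line at 0; bars are means of 3 cultures). PYCR1 averaged -0.75 in DMSO and 0.09 in rapamycin, and no other enzyme has separated groups.

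Levels between genes are compared per length. In total RNA of DMSO cultures, MTHFD2 stood highest at 137 ± 1.99 FPKM (SD, n = 3), followed by PYCR1 at 90.4 ± 4.24 and ASNS at 69.2 ± 2.22. MTHFD1L at 50.3 ± 2.74, PSAT1 at 48.0 ± 0.775 and SHMT2 at 46.0 ± 4.17 formed a group whose neighbours overlapped between cultures. MTHFD1 at 37.2 ± 1.62, PSPH at 27.0 ± 0.776, PHGDH at 12.7 ± 0.461 and SHMT1 at 7.19 ± 0.394 followed without overlap. The order was the same in rapamycin.

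The order of RF per kilobase of coding sequence was different. MTHFD2 at 103 ± 33.2, ASNS at 98.6 ± 6.77 and PSAT1 at 96.9 ± 10.8 CPM per coding kb overlapped at the top in DMSO. All 3 DMSO cultures of PYCR1, at 55.8 ± 13.3, lay below those of these genes. SHMT1, at 7.53 ± 2.52, was again lowest, and from PYCR1 downwards each gene overlapped the next. In rapamycin PYCR1 stood second, at 102 ± 20.6, behind PSAT1 at 130 ± 28.2.

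**Figure D4:**
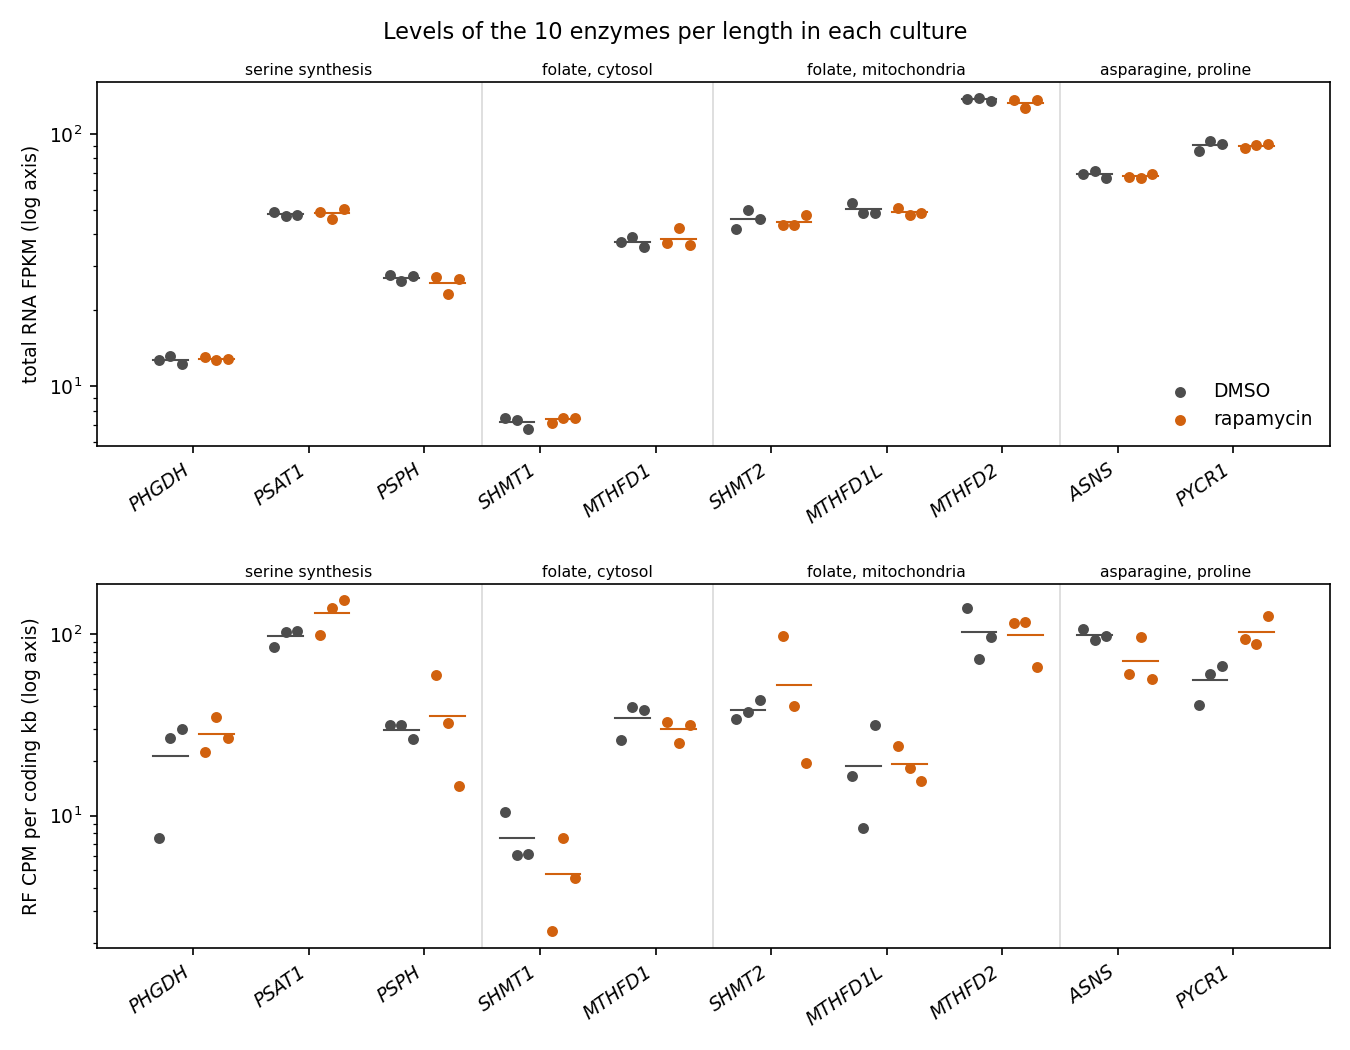
Total RNA in FPKM (top) and RF in CPM per kb of coding sequence (bottom) for each enzyme in each culture, both on log axes, with means of 3 cultures as bars. Total RNA ranges from 7.19 FPKM for SHMT1 to 137 for MTHFD2 in DMSO with cultures close together, and RF has a far wider spread.

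TE levels, as footprints per mRNA read against the median gene of a culture, fell around the middle of all genes. In DMSO ASNS was highest, 1.48 times the median gene and at the 65.6th percentile, and MTHFD2 lowest, 0.56 times and at the 28.9th percentile. In between came PHGDH, PSAT1, MTHFD1, SHMT1, SHMT2, MTHFD1L, PSPH and PYCR1 in falling order, and every gene overlapped the next. With RF taken per coding length and total RNA as FPKM, PSAT1 came highest, at the 71.2nd percentile of 12101 genes, and MTHFD1L lowest, at the 10.8th. Of the FPKM of MTHFD2, 50.4% lay in an isoform annotated as a target of nonsense-mediated decay, which counts in its total RNA.

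By FPKM the mitochondrial enzymes were more abundant than their cytosolic counterparts in total RNA. SHMT2 exceeded SHMT1 6.41 ± 0.718-fold in DMSO and 6.09 ± 0.272-fold in rapamycin by FPKM, with an exact permutation p of 0.6. In RF per coding kb the ratio was 3.26, 6.16 and 7.08 in DMSO and 42.2, 5.32 and 4.31 in rapamycin, and the value of rapamycin replicate 1 combines the highest SHMT2 with the lowest SHMT1 reading. MTHFD2 exceeded MTHFD1 3.69 ± 0.113-fold in DMSO and 3.48 ± 0.430-fold in rapamycin by FPKM, and the RF ratios, 3.22 ± 1.83 and 3.41 ± 1.29, overlapped. The FPKM ratio is not one of coding mRNA alone, as 50.4% of MTHFD2 FPKM lay in the nonsense-mediated decay isoform. MTHFD1L stood at 1.35 ± 0.0929 times MTHFD1 by FPKM in DMSO and at 0.56 ± 0.315 times in RF per coding kb. In total RNA counts the order was the reverse, 101 CPM for MTHFD1L and 112 for MTHFD1 in DMSO. Their longest coding sequences are similar, at 2937 and 2892 bases. Annotated isoforms held only 33.7% of the FPKM of MTHFD1, so which of these 2 mRNAs is more abundant is uncertain.

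Copies of these genes elsewhere in the genome limit what unique alignment can count. Of all 28-base windows in the longest coding sequence, 36.4% recurred elsewhere in GRCh37 for PSAT1, 33.9% for MTHFD2, 30.1% for PSPH, 22.0% for MTHFD1, 19.7% for ASNS and 14.8% for SHMT1. Most of the copies are annotated pseudogenes, such as PSAT1P3 and MTHFD2P7. MTHFD1L had 2.44% and PYCR1 0.198%, and PHGDH and SHMT2 had none. The authors kept only reads with 1 alignment, so the levels of the first 6 genes against other genes are uncertain, whereas the same windows are lost in both treatments. The paper describes short RF reads and paired-end total RNA reads, so the loss may differ between library types. The TE levels of these genes given above are therefore uncertain too, and the size of this effect was not tested.

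**Figure D5:**
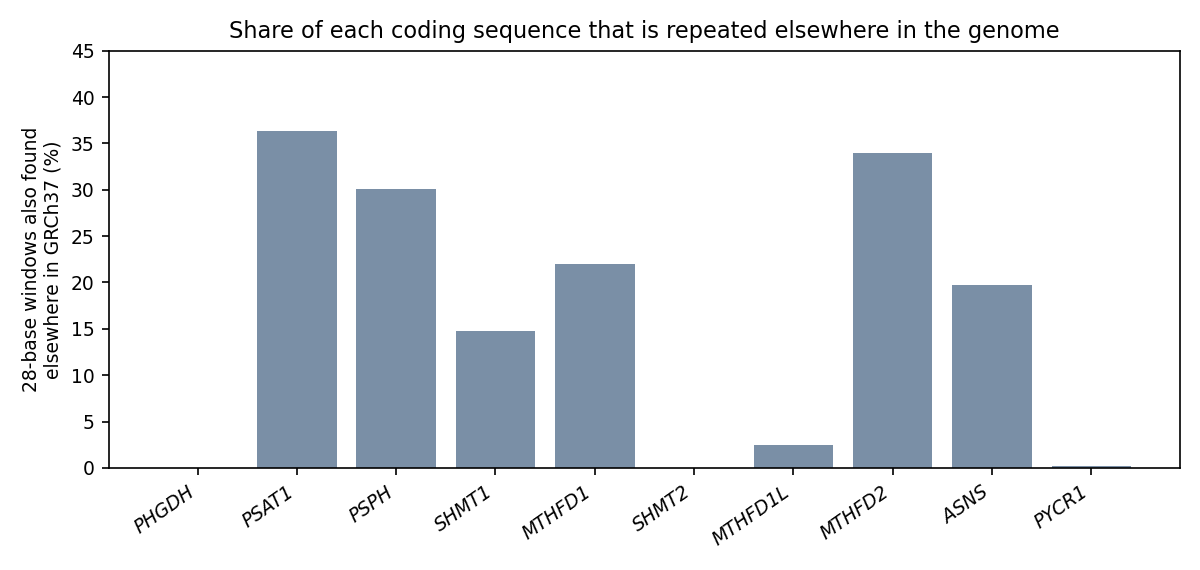
Share of 28-base windows of each enzyme's longest coding sequence that also occur elsewhere in GRCh37 (bars, percent). PSAT1, MTHFD2 and PSPH have the highest shares, 36.4%, 33.9% and 30.1%, and PHGDH and SHMT2 have none.

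Neighbouring genes of the same pathways were read from 3 lists. Of the folate cycle and uptake list, 17 of 18 symbols were tested, with TE estimates lower for 11 and higher for 6 and a median log2 fold change of -0.18, which was -0.43 without rapamycin replicate 1 and 0.01 without replicate 2. Among its 3 genes with the most RF reads, TYMS, which makes thymidylate, had a TE log2 fold change of -0.62 ± 0.41, the folate carrier SLC19A1 of -0.24 ± 0.32 and GGH, which trims folate polyglutamates, of 0.51 ± 0.44. Leaving out 1 culture at a time gave -1.03 to -0.39 for TYMS, -0.63 to -0.04 for SLC19A1 and 0.21 to 1.02 for GGH. At an unadjusted p under 0.05, 1 gene, MTHFS, was lower and 2, MTR and FPGS, were higher, beside 6.04% and 6.59% of all genes.

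Of the list of serine, glycine, asparagine and proline neighbours 20 of 23 were tested, 11 lower and 9 higher in TE with a median of -0.10 that was 0.31 without DMSO replicate 3 and 0.12 without rapamycin replicate 3, and none passed even the unadjusted threshold. The amino acid transporter SLC38A2 held 9376 RF reads and had a TE log2 fold change of 0.24 ± 0.23 (0.006 to 0.37 with 1 culture left out). For SLC1A5, another transporter, it was 0.27 ± 0.30 (0.03 to 0.38), and for DLD, the shared dehydrogenase subunit of the glycine cleavage system, -0.08 ± 0.32.

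Of ATF4 and its other targets 21 of 22 were tested, 7 lower and 14 higher in TE with a median of 0.18, which was 0.003 without DMSO replicate 2, 0.04 without rapamycin replicate 1 and 0.04 with TMM over all libraries. No gene of any of the 3 lists was called in TE, RF or total RNA (edgeR's quasi-likelihood test, Benjamini-Hochberg adjusted). Among the genes named by rule, DESeq2's Wald test called NARS and GARS lower in TE, with adjusted p of 0.00251 and 0.0449, and SLC38A2 higher in total RNA, with a log2 fold change of 0.12 and an adjusted p of 0.00542. ATF4 itself had RF of 63.5, 90.01 and 34.8 CPM in DMSO and 99.4, 73.0 and 39.2 in rapamycin, which overlap, and a TE log2 fold change of 0.38 ± 0.42. RF reads were counted over all exons, so for ATF4, as for any gene, footprints outside the coding sequence are included. Total RNA of ATF4 was lower in every rapamycin culture than in every DMSO culture, as it was for 10.7% of all genes. It stood at 220 ± 6.46 against 232 ± 6.32 CPM (SD, n = 3), with a log2 fold change of -0.07 and an adjusted p of 0.633 by edgeR's quasi-likelihood test.

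Within that list NARS and CTH were lower and ATF5 and VEGFA higher at an unadjusted p under 0.05 in TE, 2 of 21 in each direction beside 6.04% and 6.59% of all genes. NARS, which charges tRNA with the asparagine that ASNS makes, had RF of 188, 244 and 148 CPM in DMSO and of 97.7, 88.8 and 85.0 in rapamycin, without overlap. Of all genes, 3.98% had all rapamycin cultures below all DMSO cultures in RF. The TE log2 fold change of NARS was -0.99 ± 0.25, with an adjusted p of 0.229 by edgeR's quasi-likelihood test, which called it without DMSO replicate 3 (adjusted p 0.0305). The likelihood ratio test, chosen after seeing the data, also called it (adjusted p 0.00515). GARS, the glycine counterpart of NARS, had -0.33 ± 0.21 (-0.52 to -0.19 with 1 culture left out) and the transporter subunit SLC3A2 0.01 ± 0.31. ATF5, a transcription factor related to ATF4 and named after its values were seen, had RF of 45.4, 36.3 and 36.8 CPM in DMSO and of 86.0, 76.7 and 71.9 in rapamycin, with a TE log2 fold change of 1.12 ± 0.32 and an adjusted p of 0.231.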

How the data were processed

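RF and total RNA were measured in 6 PANC-1 cultures. The authors filtered and trimmed RF reads, removed ribosomal RNA, aligned reads to GRCh37 with HISAT2 and deposited raw counts per protein-coding gene, made with featureCounts from exonic reads with a single alignment. The authors deposited FPKM per gene and isoform from Cufflinks 2.2.1 cuffnorm (the submitters' processing notes) and a normalized signal, counts divided by a size factor. The deposited RiboDiff columns, the RF over RNA ratio per treatment, its log2 fold change and the p-value with its adjusted value, were not used, nor was a deposited signal column headed fpkm that equals the mean DMSO RNA count. Versions of HISAT2 and featureCounts are not given in the sources used here.

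Counts were tested with edgeR 4.0.16 in R 4.3.3: TMM within each library type, quasi-likelihood test with robust estimation, Benjamini-Hochberg over genes with at least 10 counts per library type. The TE change was the treatment by library type interaction. A prior count of 2 entered log2 TE of single cultures. RiboDiff was not used here. On simulated counts with 200 of 13329 genes changed 4-fold, the TE test recovered 28.5% with 58 false calls, RF 24.5% with 13 and total RNA 87% with 19. In TE, false calls were about as many as true ones, so that test was not calibrated on these counts.

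Members, lists and tests were chosen with earlier results of these data known. Named genes are the members, ATF4, the 3 genes of each list with the most RF counts and any called gene; MTHFS, MTR, FPGS, CTH, ALDH18A1, ATF5 and VEGFA were named after their values were seen. No replicates differed by less than sampling noise. Same-numbered DMSO and rapamycin cultures did not deviate together (r from -0.12 to -0.06 in RF, -0.22 to -0.11 in total RNA), so numbers were not used as pairs between treatments. Same-numbered RF and total RNA libraries did not deviate together either (r from -0.10 to -0.01 in DMSO, -0.03 to 0.008 in rapamycin). Log2 TE of single cultures still sets RF against total RNA of the same number, following the labels. The alternatives were DESeq2 1.42.0, limma 3.58.1 voom and limma-trend, other filters and scalings, replicate blocks, leaving out cultures and, chosen after seeing the data, a likelihood ratio test and leaving out both smallest RF cultures.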

Additional observations from a re-analysis of the deposited data

How the results depend on the processing

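PYCR1 and PSAT1 kept a positive and ASNS, MTHFD1 and SHMT1 a negative log2 fold change in TE and RF under every alternative run, except that SHMT1 has no value at a minimum of 50 counts. Calls depended on the test. In TE, DESeq2's Wald test called 622 of 13329 genes lower and 685 higher, among them 1 of 10 members lower and 1 higher. The likelihood ratio test, chosen after seeing the data, called 846 lower and 1043 higher, among them 1 member higher. Such member counts are near the shares of all genes and say nothing particular about the group. In RF, DESeq2's Wald test called 1 lower and 4 higher, a minimum of 1 count called 10 lower and 10 higher, and DESeq2 size factors, a minimum of 50 counts and leaving out both smallest RF cultures, also chosen after seeing the data, left 0 higher. In total RNA, DESeq2's Wald test called 4 lower and 25 higher, and each of the limma-trend fits on log2(FPKM + 1), on log2(FPKM + 0.1) and with no minimum FPKM called 1 higher. With the replicate block (number), 3 genes were higher in TE and 2 lower and 4 higher in RF, and the RF log2 fold change of SLC3A2 was 0.009; no member was called with this block or with the culture block.

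Leaving out 1 culture at a time gave 0 to 298 genes lower and 0 to 66 higher in TE, 0 to 1 lower and 0 to 5 higher in RF, and 0 to 12 lower and 0 to 696 higher in total RNA; the high counts in TE and total RNA came without DMSO replicate 3, when the remaining DMSO RNA libraries detect 16840 and 16858 genes and the others at least 19751. The median RF log2 fold change of the members ranged from -0.239 to 0.323. In TE the ranges that cross 0 were -0.155 to 0.393 for PHGDH, -0.046 to 0.764 for PSPH, -0.243 to 0.94 for SHMT2, -0.363 to 0.857 for MTHFD1L, -0.087 to 0.306 for MTHFD2, -0.287 to 0.115 for DLD, -0.004 to 0.866 for ATF4 and -0.261 to 0.188 for SLC3A2. In RF they were -0.013 to 0.596 for PHGDH, -0.308 to 0.642 for PSPH, -0.361 to 0.841 for SHMT2, -0.348 to 0.669 for MTHFD1L, -0.21 to 0.245 for MTHFD2, -0.365 to 0.08 for DLD, -0.154 to 0.619 for ATF4 and -0.258 to 0.168 for SLC3A2. In total RNA they were -0.015 to 0.023 for PHGDH, -0.045 to 0.044 for PSAT1, -0.063 to 0.041 for PSPH, -0.001 to 0.021 for SHMT1, -0.053 to 0.045 for MTHFD1, -0.064 to 0.001 for MTHFD2, -0.056 to 0.008 for PYCR1, -0.069 to 0.017 for GGH, -0.074 to 0.104 for TYMS and -0.034 to 0.016 for SLC3A2.

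Other changes of direction were in estimates near 0, and their cause was not tested. With TMM over all libraries the TE log2 fold change was -0.085 for MTHFD1L, -0.044 for MTHFD2 and -0.136 for SLC3A2, which had -0.007 with DESeq2 size factors, -0.019 with DESeq2's Wald test and -0.063 with limma voom. Without both smallest RF cultures it was -0.009 for PHGDH in TE, and in RF 0.451 for MTHFD2 and 0.124 for SLC3A2. In total RNA, DESeq2's Wald test gave 0.012 for PSAT1, 0.003 for GARS and 0.006 for SLC3A2. The limma-trend fits on log2(FPKM + 1), with or without a minimum, gave 0.017 for PSAT1, 0.067 for GGH, 0.016 for GARS and 0.007 for SLC3A2, log2(FPKM + 0.1) gave 0.018, 0.069, 0.016 and 0.007, and the normalized signal 0.004, 0.002, 0.009 and 0.007. With 2 to 13 reads per library for SHMT1 and 3 to 48 for PSPH, depth limits their RF values, and the spread between RF replicates exceeded counting error.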
